A study of Canis lupus familiaris with 28 samples.

Results

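The type 2 axis described here is a set of 9 genes through which interleukins 4, 13 and 31 act: the ligands IL4 and IL13, the receptor chains IL4R, IL13RA1, IL2RG, IL31RA and OSMR, and the transcription factors STAT6 and GATA3. Every probe of the canine array that carries one of these names was taken, which gave 14 probes for 8 of the 9 genes among 43603 probes in all. IL13RA1 matched no probe by name and was not analysed here. Blood RNA of 20 privately owned dogs of various breeds with atopic dermatitis (AD dogs) and of 8 healthy dogs, all adult, was hybridized on two-color arrays, 1 for each dog. The AD dogs showed clinical signs when they were bled and had been kept off anti-inflammatory drugs before allergy testing, and the healthy dogs were blood donors. Cy5 carried the dog's RNA and Cy3 carried a common reference, a pool of blood RNA from 13 other healthy dogs. The labels give whole blood as the source, and the methods of the study speak of peripheral blood nuclear cells.

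Interleukin 4 and interleukin 13 are the leading cytokines of T helper 2 cells, basophils and mast cells, and they drive IgE class switching. Both signal through the alpha chain of the interleukin 4 receptor, encoded by IL4R, which pairs either with the common gamma chain (IL2RG) or with the interleukin 13 receptor chain (IL13RA1), and then activates STAT6. GATA3 is the transcription factor that sets up the T helper 2 programme. Interleukin 31, a cytokine of itch in dogs, binds a receptor of IL31RA and the oncostatin M receptor, OSMR.

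The probe sequences are shown first because 1 of the 4 IL4 probes and 1 of the 3 IL4R probes stood far apart in brightness. All probes are 60 bases long, and positions are those that the files give for the CanFam3.1 build, without exons or untranslated regions. A stretch of 30 bases of each IL4 probe is printed 5′ to 3′. Capitals mark CTCTCTCTC, a run of 9 bases that was picked as a motif after the brightness was seen.
IL4 A_11_P000001132, probe bases 10 to 39: ctgtctcttgCTCTCTCTCattctccgcca
IL4 A_11_P053556, probe bases 1 to 30: tatctcagaggactctacaggaacctcagc
IL4 A_11_P0000019877, probe bases 4 to 33: aagacttcttggaaaggctaaaagtgatca
IL4 A_11_P053456, probe bases 28 to 57: aagacttcttggaaaggctaaaagcgatca
The first probe lies at chr11:20973117-20973176 on the plus strand. The second is given as chr11:20978692-20981365, a span of 2674 bases for a probe of 60, and begins 5515 bases after the first one ends. The third and the fourth, at chr11:20981385-20981444 and chr11:20981361-20981420, share 36 positions of the genome and differ there at 1 base. For IL4R, capitals mark the longest run of pyrimidines (C or T) in each stretch.
IL4R A_11_P169113, probe bases 20 to 49: tttaTCTCCTCCCCCTTCCTCCCCCacatt
IL4R A_11_P0000033097, probe bases 25 to 54: cagaCCCCCTCagggacgacctggccagta
IL4R A_11_P179978, probe bases 1 to 30: aacgTTTCgaatgacaacgaccccgaggac
These 3 probes lie on the minus strand of chromosome 6, at chr6:19254195-19254254, chr6:19255551-19255610 and chr6:19263497-19268080.

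The brightest IL4 probe, A_11_P000001132, gave a processed signal of 66118 at the lowest, 113474 at the median and 168551 at the highest in AD dogs. In healthy dogs the signal was between 104029 and 163515, with a median of 135762. The common reference gave 91997 to 194540 on the same arrays. This probe was well above background in every dog and was brighter than 99.2% to 99.7% of the probes of each array. The other 3 IL4 probes behaved in another way. Their median signals over the 28 arrays were 100.4, 78.9 and 66.5, and the dog's RNA exceeded background on 21, 17 and 20 arrays. On scan day 5, when 6 AD dogs were read, none of the 3 was detected. The files tie the bright probe to a separate GenBank mRNA record and the 3 dim ones to the RefSeq transcript of IL4. The 6 probes of other names that the files place between chr11:20960534 and chr11:20989523, from just before IL13 to KIF3A, had median signals of 11.3 to 95.1, so the bright probe had no bright neighbour. Probes bind with different strength, so the brightness of a probe is a property of that probe and does not rank genes by transcript level.

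**Figure D1:**
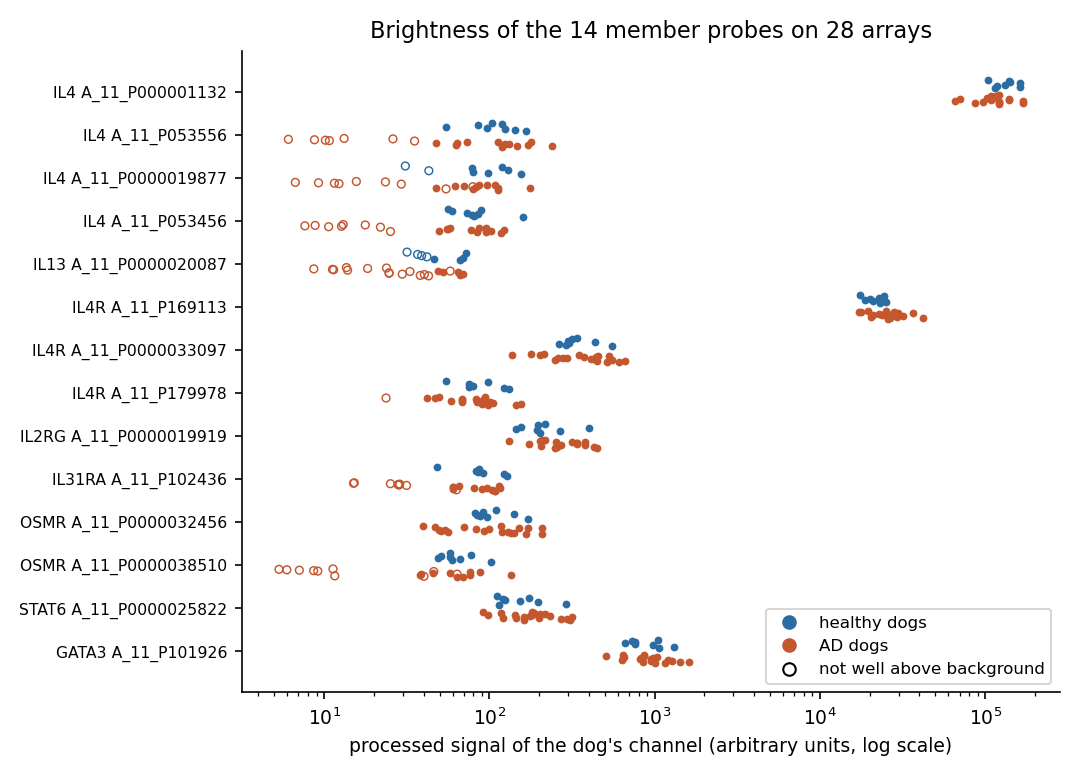
Processed signal of the dog's channel (arbitrary units, log scale) for each of the 14 member probes, with 1 point for each of 8 healthy and 20 AD dogs; open points were not well above background. The bright IL4 probe lies at 66118 or above on every array and the bright IL4R probe at 17189 or above, whereas no other probe of IL4 or IL4R exceeds 662.

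The motif CTCTCTCTC was searched in all 43603 probes. It was present on the printed strand of 59 probes (0.135%), of which the bright IL4 probe was 1, and on the other strand only of 32 probes. The 59 probes had a median signal of 96828 (quartiles 21612 and 346439), against 157.9 over all probes. A signal above 20000 was found for 45 of the 59 probes and for 840 of all 43603. Probes with the motif on the other strand only had a median signal of 224. No other member probe held the motif on either strand. Of the 3 brightest probes with the motif, 1 is named for a gene, INPP5K, an inositol phosphatase, with a median signal of 515901. The bright IL4R probe did not hold it, and its longest run of pyrimidines was 21 bases. Probes with a run at least that long and without the motif numbered 31, and their median signal was 2073. A match of letters is a description of the probe and was not tested as a source of the signal.

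**Figure D2:**
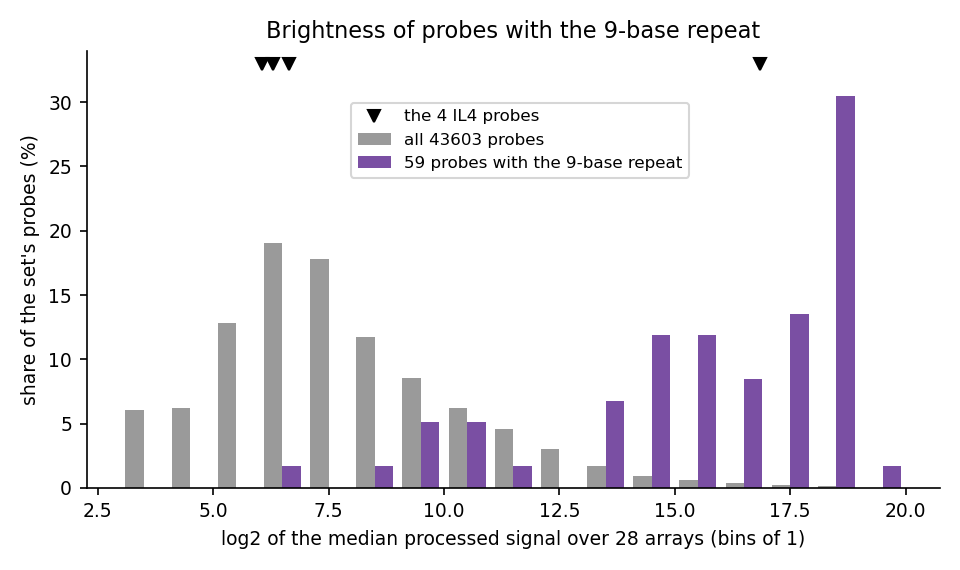
Share of probes (percent of the set, starting at 0) in each bin of the log2 median signal over 28 arrays, for all 43603 probes and for the 59 probes that hold the 9-base repeat; triangles mark the 4 IL4 probes. The probes with the repeat lie mostly to the right, 45 of 59 above a signal of 20000, where 1 IL4 probe also lies.

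AD and healthy dogs were then compared for each probe as a log2 ratio, the dog's signal over that of the common reference, centered on the median of each array. The log2 fold change subtracts the healthy mean from the AD mean and was taken from limma, fitted to all 30202 probes that passed a filter on signal (a median above 100 in either channel of either group). Of the 14 member probes, 9 of 6 genes passed. IL13, IL31RA and 1 probe each of IL4, IL4R and OSMR did not. Where the median had to exceed 100 in both channels of both groups, 6 member probes passed, without OSMR and the dim IL4 probes. None of the 9 probes was called at the study's limit of 0.085 for the Benjamini-Hochberg adjusted p, as was the case for all probes, of which 0% were called, and the smallest adjusted p was 0.490. The study, whose filter on signal kept fewer transcripts, did report differentially expressed transcripts at that limit. With an unadjusted p under 0.05 there was 1 member probe, the bright IL4 probe, beside 6.12% of all probes. It was lower in AD dogs, as were 4.46% of all probes at that p, and no member was higher, beside 1.65%. For each of the 9 probes the AD and healthy dogs overlapped. Each of the 8 slides and 5 scan days held dogs of a single group, so slide, scan day and disease cannot be told apart. In the dog's channel 84.3% to 90.3% of all probes were above background on the healthy arrays and 51.7% to 87.5% on the AD arrays, the lowest being those of scan day 5 (51.7% to 63.2%).

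**Figure D3:**
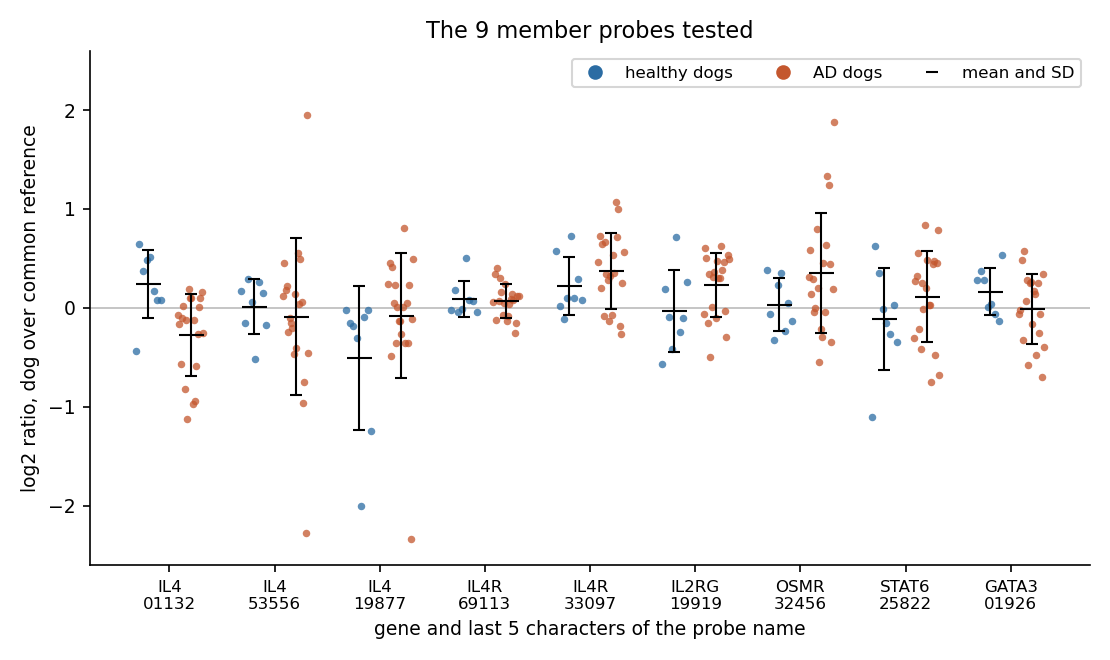
Log2 ratio of dog over common reference for the 9 member probes tested, with 1 point for each of 8 healthy and 20 AD dogs and bars for the mean and SD. The groups overlap for every probe, the bright IL4 probe included.

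For the bright IL4 probe the log2 ratio in AD dogs was -1.13 at the lowest, -0.12 at the median and 0.20 at the highest. In healthy dogs it was -0.44, 0.64, 0.38, 0.48, 0.52, 0.17, 0.08 and 0.08 for dogs 1 to 8. The healthy mean exceeded the value of all 20 AD dogs, but healthy dog 1 was lower than most of them, and 6 AD dogs lay under every healthy dog. The log2 fold change was -0.51 (standard error, SE, 0.165, 95% interval -0.85 to -0.17, adjusted p = 0.490 with limma). The common reference alone gave a difference of 0.06 between the arrays of the groups for this probe (SE 0.0657). With array weights, where 849 of 30202 probes were called, the adjusted p from limma was 0.0571. With the dog's channel alone, where 3.49% of all probes were called, it was 0.0576, and over all alternatives it reached 0.996. Among the dim IL4 probes, 2 were tested, and they gave fold changes on the log2 scale of -0.10 (95% interval -0.66 to 0.45) and 0.43 (95% interval -0.10 to 0.96), with adjusted p from limma of 0.957 and 0.866. The second value was 0.21 without healthy dog 5 and ran from 0.09 to 0.77 with 1 slide left out. Median signals of these 2 probes were 68.4 and 66.1 in AD dogs and 111 and 88.6 in healthy dogs. In the dog's channel the first passed the limit of 100 only in healthy dogs, and the second in neither group. For them the common reference was well above background on 21 and 18 of the 28 arrays.

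The bright IL4 probe did not follow the dim ones from dog to dog. Over AD dogs the bright probe had a Pearson correlation of -0.18, -0.12 and -0.09 with the 3 dim ones, which correlated among themselves at 0.34 to 0.55 (n = 20, description only, with each dim probe above background in 11 to 13 of these dogs). In healthy dogs the values were -0.43, -0.28 and 0.16 for the bright probe and 0.30 to 0.87 among the dim ones (n = 8). The difference between the bright and a dim probe was calculated within each dog and compared between the groups by a two-sided exact permutation test, 6 probe pairs being compared over IL4, IL4R and OSMR. For IL4 the largest such difference, against A_11_P0000019877, averaged -0.19 ± 0.79 (SD) over 20 AD dogs and 0.74 ± 0.89 (SD) over 8 healthy dogs. It gave an exact p = 0.0180, or 0.108 after Benjamini-Hochberg adjustment, which does not pass. The dim probe of this pair was above background in 11 of 20 AD dogs, none of them of scan day 5, and in 6 of 8 healthy dogs, so the difference holds values at background and no contrast of the probes is read from it. It was -0.63 without slide 3 (adjusted exact p = 0.774) and -1.09 without slide 8 (adjusted exact p = 0.00425). Slide 3 held healthy dog 5, whose dim probe was at -2.01, the lowest of the healthy dogs.

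The log2 ratio of the bright IL4 probe was close to that of the other probes with the motif, dog by dog. On each array the median log2 ratio of the other 58 motif probes was subtracted from the IL4 value. The remainder was -0.003 ± 0.06 (SD) over 20 AD dogs and 0.05 ± 0.06 (SD) over 8 healthy dogs, and it stayed between -0.12 and 0.13 on all arrays, while the IL4 value itself went from -1.13 to 0.64. Of the 59 motif probes, 57 had a negative log2 fold change, as did 52.1% of all probes tested, and their median was -0.46 (quartiles -0.48 and -0.45). With each group's mean removed, 46 of the other 58 motif probes had a Pearson r above 0.9 with the bright IL4 probe over the 28 arrays, and 75 of the 30143 probes without the motif did. All these values share the array, its labelling and its scan. The 3 probes with a gene symbol most like it, among 16742, were those of FAM107A (r = 0.995), SYT9 (r = 0.994) and GJB1 (r = 0.988), a stress-associated actin-binding protein, a synaptotagmin and a connexin. The FAM107A probe held the motif and the other 2 did not, and their median signals were 99778, 158599 and 75546.

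**Figure D4:**
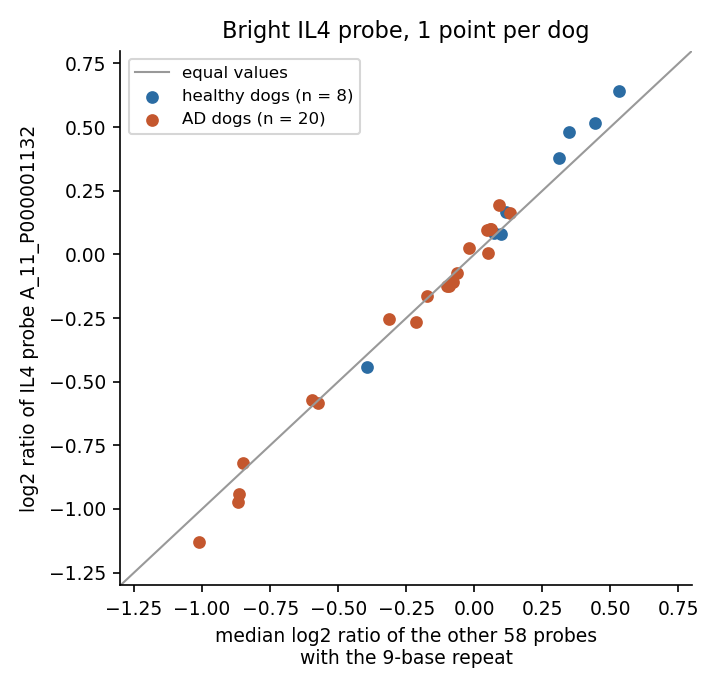
Log2 ratio of the bright IL4 probe (vertical axis) against the median log2 ratio of the other 58 probes with the 9-base repeat (horizontal axis), 1 point for each of 28 dogs; the line marks equal values. The points follow the line, with remainders between -0.12 and 0.13.

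IL13, which shares receptor chains with IL4, had 1 probe, A_11_P0000020087 at chr11:20961314-20961373. It was well above background in 5 of 20 AD dogs and 4 of 8 healthy dogs, and in the common reference on none of the 28 arrays. Its signal was 8.67 to 69.4 in AD dogs (median 31.4) and 31.8 to 71.9 in healthy dogs (median 44.1). The ratio to the reference therefore has no measured denominator, and no fold change is given. None of the arrays of scan day 5 detected it. The ligand IL31 matched no probe by name and was not analysed here.

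IL4R, the receptor chain shared by interleukin 4 and interleukin 13, had 3 probes of unequal brightness. A_11_P169113 gave 17189 to 41957 in AD dogs and 17489 to 25087 in healthy dogs. A_11_P0000033097 gave 136 to 662 in AD dogs and 262 to 554 in healthy dogs, and A_11_P179978 gave 23.7 to 155 and 54.4 to 131. On the minus strand the brightest probe is the most downstream and the dimmest the most upstream, with 1296 and 9242 bases between the brightest and the other 2. The log2 ratio of the brightest probe averaged 0.07 ± 0.17 (SD) over the 20 AD dogs and 0.09 ± 0.19 (SD) over the 8 healthy dogs. Its log2 fold change was -0.02 (95% interval -0.21 to 0.17), the narrowest interval among the members. For A_11_P0000033097 the log2 ratio was 0.37 ± 0.38 and 0.22 ± 0.29, with a log2 fold change of 0.15 (95% interval -0.16 to 0.46). Healthy dog 5 was at 0.51 on the bright probe and at 0.72 on the second. These 2 probes had an r of 0.59 in AD dogs (n = 20) and 0.61 in healthy dogs (n = 8, description only). The dimmest probe had an r of 0.14 with the brightest in both groups, and of -0.02 in AD and 0.25 in healthy dogs with the second. Within each dog the brightest minus the dimmest IL4R probe averaged -0.33 ± 0.54 (SD) over AD dogs and 0.09 ± 0.33 (SD) over healthy dogs, a difference of -0.42 (exact p = 0.0431, adjusted 0.129) that does not pass. The dimmest probe did not pass the filter on signal, and the common reference was well above background for it on 23 of the 28 arrays. On scan day 5 its mean log2 ratio was 0.72 at a median signal of 48.3, so no contrast of the probes is read from this difference. For the second probe, normexp and loess gave a log2 fold change of 0.03. The sign of the bright probe's fold change turned under 7 of 24 alternatives, so no direction is given. Closest to it among 16743 probes with a symbol were CALCA, SLC4A2 and KRT14, with r between 0.80 and 0.83 over the 28 arrays, and none of these held the motif.

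IL2RG, the common gamma chain, had 1 probe, A_11_P0000019919 at chrX:55481108-55481166, which was well above background in every dog. Its signal was 131 to 450 in AD dogs and 146 to 401 in healthy dogs. The log2 ratio had a median of 0.32 in AD dogs (lowest -0.49, highest 0.62) and was -0.57, 0.19, -0.09, -0.42, 0.71, -0.24, -0.10 and 0.26 in healthy dogs 1 to 8. Only 5 AD dogs lay under the healthy mean, but healthy dog 5 was the highest of all. This gave a log2 fold change of 0.26 (SE 0.148, 95% interval -0.04 to 0.56, adjusted p = 0.865 with limma). The common reference, which is the same RNA on every array, also differed for this probe, by 0.33 from healthy to AD arrays (adjusted p = 0.00391 with limma). In that channel 2 of the 9 member probes were called, IL2RG and STAT6, beside 39.4% of all probes. With the dog's channel alone the IL2RG difference was 0.58 (adjusted p = 0.0993). Without slide 3, which held healthy dog 5, the fold change was 0.45, and without slide 2 it was 0.07. With normexp and loess it was 0.09. Its nearest probes among 16744 were those of CDIPT, MAP2K4 and N4BP1, with r between 0.64 and 0.69 over the 28 arrays.

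Among the probes for the chains of the interleukin 31 receptor, that of IL31RA and the second of OSMR were near background. The first OSMR probe was dim but detected. The IL31RA probe, A_11_P102436 at chr2:43192216-43192275, was above background in 12 of 20 AD dogs and all 8 healthy dogs, and in none of the 6 dogs of scan day 5. Its signal was 15.1 to 117 in AD dogs and 48.2 to 128 in healthy dogs, and its log2 ratios were -0.08 ± 0.64 (SD, n = 20) and 0.09 ± 0.35 (SD, n = 8). The common reference was well above background for IL31RA on 18 of the 28 arrays, so part of these ratios have no measured denominator. OSMR A_11_P0000032456, at chr4:70018084-70018143, was above background in every dog, with a signal of 39.7 to 209 in AD dogs and 81.6 to 173 in healthy dogs. The log2 ratio of this probe reached 1.88 in AD dogs (lowest -0.55, median 0.25) and lay between -0.33 and 0.38 in healthy dogs. OSMR had a log2 fold change of 0.32 (SE 0.216, 95% interval -0.12 to 0.76, adjusted p = 0.866 with limma), and the 6 AD dogs of scan day 5 had a mean of 0.79 against means of -0.00 to 0.33 on the other days of AD dogs. Without scan day 5 the log2 fold change of OSMR was 0.13, and after normexp and loess, an alternative to the authors' background and dye steps, it was 0.04. The second OSMR probe, A_11_P0000038510, was above background in 10 of 20 AD dogs and all 8 healthy dogs, and on none of the arrays of scan day 5, so it gives no second reading of OSMR there. In healthy dogs, where both probes were detected, their r was 0.08 (n = 8, description only). Over AD dogs, with the second probe at background in part of them, their r was -0.52 (n = 20, description only). SLC4A5, COL26A1 and PAX9 were the probes most like OSMR, with r between 0.88 and 0.89 and median signals of 107 to 210.

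STAT6, which carries the signal of the interleukin 4 receptor to the nucleus, had 1 probe, A_11_P0000025822 at chr10:1233691-1233750, above background in every dog. Its signal was 91.0 to 315 in AD dogs and 111 to 293 in healthy dogs. The log2 ratio had a median of 0.23 in AD dogs (lowest -0.75, highest 0.84) and was -1.11, 0.63, 0.35, -0.01, -0.15, -0.27, 0.03 and -0.35 in healthy dogs 1 to 8. The healthy dogs spanned a wider range than the AD dogs. STAT6 had a log2 fold change of 0.22 (SE 0.194, 95% interval -0.17 to 0.62, adjusted p = 0.872 with limma), and the common reference alone differed by 0.36 in the same direction (adjusted p = 0.0201 with limma). With the dog's channel alone the STAT6 difference was 0.62 (adjusted p = 0.168 with limma). The probe most like it was that of THEMIS2, an adaptor protein of lymphocytes and macrophages, with r = 0.895 over the 28 arrays and 0.945 with the mean of each slide removed. CIAO1 and SIDT2 followed, with r of 0.845 and 0.838. Its r with the bright IL4 probe was 0.528 over the 28 arrays, 0.42 in AD dogs and 0.86 in healthy dogs (description only). The second IL4R probe had -0.498 with that IL4 probe. Over the member and pathway probes tested such values ran from -0.67 for a SOCS5 probe to 0.88 for an IL6ST probe.

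GATA3 was measured by A_11_P101926 at chr2:28070161-28070220, with a signal of 509 to 1607 in AD dogs (median 907) and 662 to 1315 in healthy dogs (median 867). The log2 ratio was -0.70 at the lowest, 0.02 at the median and 0.57 at the highest in AD dogs. In healthy dogs it was 0.28, 0.38, 0.28, 0.01, 0.04, -0.06, -0.13 and 0.53. There were 7 AD dogs below all healthy dogs, and 1 AD dog above all of them. GATA3 had a log2 fold change of -0.18 (SE 0.141, 95% interval -0.46 to 0.11, adjusted p = 0.870 with limma), and it stayed negative in all 24 alternatives, between -0.25 and -0.08. The 6 AD dogs of scan day 5 had a mean log2 ratio of -0.14, the other AD dogs 0.02 to 0.09 by day. In whole blood, fewer cells of a type and less RNA per cell cannot be told apart.

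GATA3 was correlated with 1 T cell gene chosen for the test, CD3E, and its nearest probes were listed. The 3 probes most like it among 16744 included CD27 (r = 0.816) and CD28 (r = 0.751), both costimulatory receptors of T cells, and SYTL3 (r = 0.742), over the 28 arrays with group means removed. With CD3E, a chain of the T cell receptor complex, the Pearson r was 0.70 in AD dogs (n = 20, adjusted permutation p = 0.00354), and Spearman's rho was 0.67 (adjusted permutation p = 0.00912). In healthy dogs r was 0.85 (n = 8, adjusted exact p = 0.0173), and rho was 0.79 (adjusted exact p = 0.0838). After slide means were subtracted, r was 0.71 in AD and 0.83 in healthy dogs. Leaving out the 2 dogs with the most extreme GATA3 values gave 0.65 in AD dogs (adjusted permutation p = 0.0236) and 0.75 in healthy dogs (adjusted exact p = 0.158). The 3 pairs of genes were correlated in each group, which makes 6 values of r in the adjustment. Between STAT6 and GATA3, r was 0.24 in AD dogs (adjusted permutation p = 0.478) and -0.01 in healthy dogs (adjusted exact p = 0.982). Between IL4R and IL2RG, r was -0.14 in AD dogs (adjusted permutation p = 0.666) and 0.75 in healthy dogs (adjusted exact p = 0.0647), and the latter was -0.14 without the 2 farthest dogs, 1 of them healthy dog 5. IL31RA did not pass the filter on signal, so its pair with OSMR was not calculated.

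**Figure D5:**
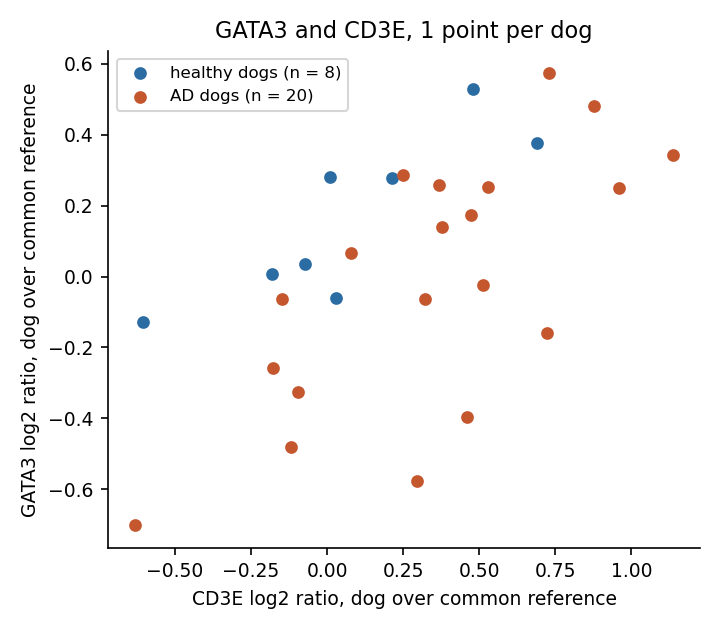
Log2 ratio of GATA3 (vertical axis) against that of CD3E (horizontal axis), 1 point for each of 20 AD and 8 healthy dogs. GATA3 is higher in dogs with higher CD3E in both groups, with r of 0.70 and 0.85.

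T cell markers were present in the blood RNA of all dogs. All 7 probes tested for T cell markers were above background in every dog, with CD3D at a median signal of 8954. The T cell list had a mean log2 ratio of -0.51 to 0.73 in AD dogs and -0.50 to 0.42 in healthy dogs. The list of eosinophil, basophil and mast cell markers had -0.63 to 1.97 in AD dogs (median -0.08) and -0.32 to 0.15 in healthy dogs (median -0.09). None of the probes tested for markers of T cells, B cells, granulocytes, monocytes, red cells and platelets was called with limma or had an unadjusted p under 0.05. Their part in the members' values was not tested.

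The other genes of the pathway were read from a list of 48 ligands, receptors, kinases, feedback inhibitors, transcription factors and targets, of which 39 had a probe tested. Of their 58 probes, 0 were called with limma, 3 had an unadjusted p under 0.05 (5.17%, beside 6.12% of all probes), and the median log2 fold change was 0.01, against -0.01 over all probes. The 3 probes were those of CCL22 and CCL17, chemokines that attract T helper 2 cells, and of IL6ST, the signal chain of the interleukin 6 family. A log2 fold change below 0 was found for 28 of the 58 probes, beside 52.1% of all probes tested. By group it was found for 3 of 4 ligand probes, 8 of 12 receptor probes, 9 of 22 probes of kinases and feedback genes, 1 of 8 probes of T cell factors and 7 of 12 target probes. With so few probes in a group no direction is read from these counts.

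CCL22 A_11_P0000030890 had a log2 ratio of -0.87 to 0.08 in AD dogs (median -0.10) and 0.01 to 0.44 in healthy dogs (median 0.10). Its log2 fold change was -0.33 (SE 0.108, unadjusted p = 0.00466 and adjusted p = 0.490 with limma). The IL6ST probe A_11_P0000013769 gave a difference of -0.32 on the log2 scale (SE 0.133, adjusted p = 0.643 with limma). The other 3 IL6ST probes had -0.14, -0.06 and 0.06. These IL6ST and CCL22 probes had median signals of 25426 and 19552, and they were the 2 probes of the pathway that followed the bright IL4 probe most closely, with r = 0.880 and 0.775 over the 28 arrays. Neither held the motif. With the dog's channel alone both were called, beside 3.49% of all probes, with adjusted p from limma of 0.00313 for IL6ST and 0.00840 for CCL22. The common reference alone was also lower on the AD arrays for both, by -0.17 for IL6ST (adjusted p = 0.0598 with limma) and by -0.21 for CCL22 (adjusted p = 0.0425 with limma), within the limit that 39.4% of all probes met in that channel. CCL17 A_11_P0000019776, with a median signal of 78.4, ran from -2.98 to 0.90 in AD dogs and from -1.40 to 0.97 in healthy dogs. Its log2 fold change was -0.91 (SE 0.393, adjusted p = 0.696 with limma), and its r with the bright IL4 probe was 0.05. Next by p were IL5RA, a receptor chain of eosinophils, at 0.37 (SE 0.206, adjusted p = 0.858 with limma), and BATF, a transcription factor of activated T cells, at 0.21 (SE 0.119, adjusted p = 0.866 with limma).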

How the data were processed

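RNA of 20 AD and 8 healthy dogs was measured on 28 two-color Agilent canine arrays. The authors scanned the arrays and made the deposited intensities with Agilent Feature Extraction 10.7.3.1, which subtracted background and normalized the dyes by Lowess. The deposited table of log10 ratios, which the authors made from the processed signals of the same arrays as Cy5 over Cy3, served as an alternative. Methods and labels state the dyes, none were swapped, and the correlation between arrays ran from -0.397 to 0.811.

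Spots of a probe were averaged, and log2(dog/reference) was centered on each array's median. Probes with a median signal above 100 in either channel of either group were kept (30202 of 43603). limma 3.58.1 in R 4.3.3 (lmFit, eBayes) compared the groups, with Benjamini-Hochberg adjustment and the study's limit of 0.085 beside 0.05. The limma steps were checked on simulated data. Differences between probes were tested by an exact permutation test over the 28 dogs, and correlations by permutation (exact in healthy dogs, 100000 permutations in AD dogs), with numpy 2.4.6. The exact test of differences was checked against scipy 1.17.1 on a small example. Arrays give no read depth, and their number limits the precision. Each dog is 1 replicate.

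Named genes were the members, the pathway genes with an unadjusted p under 0.05 (or the 5 of smallest p), and the 3 probes most like each member. Members and lists were chosen with earlier results of these data known, and the motif was chosen after seeing the brightness. Alternatives were the filter, background correction, dye normalization, centering, channel, blocks, array weights and left-out slides or dogs. Exon positions were not used here.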

Additional observations from a re-analysis of the deposited data

Results flagged for a closer look

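For the bright IL4R probe A_11_P169113, healthy dog 5 stood apart from the other 7 healthy dogs. Its log2 ratio was 0.51, the nearest dog was at 0.18 and the lowest at -0.05, so the gap to the nearest dog took 0.588 of the range of the group. Chance marks about 1 in 20 groups in this way. The same dog was the highest healthy dog for the second IL4R probe (0.72) and for IL2RG (0.71), and without it the log2 fold change of the bright IL4R probe was 0.04 in place of -0.02.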

How the results depend on the processing

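At the limit of 0.085, 0 probes were called with limma, and 1847 had an unadjusted p under 0.05. The count was 3 with no filter on signal, 1 with detection on at least 8 arrays, 1054 with the dog channel alone and 849 with array weights, and 0 under the other 20 alternatives. Among the 9 member probes tested the count was 1 with the dog channel alone, beside 1054 of all 30202 probes. It was also 1 with array weights, beside 849 of all 30202 probes, and was the bright IL4 probe both times. Of the 58 pathway probes, 2 were called with the dog channel alone. The log2 fold change of the bright IL4 probe stayed between -0.61 and -0.37 in all 24 alternatives, being nearest to 0 with normexp and loess (unadjusted p = 0.173 with limma). IL2RG, OSMR, STAT6, GATA3 and the second IL4R probe kept their sign in every alternative run, but their sizes ran from 0.07 to 0.58, 0.04 to 0.45, 0.14 to 0.62, -0.25 to -0.08 and 0.03 to 0.23. IL4 A_11_P053556 turned to 0.00469 with normexp and loess, 0.0203 with the replicate block and 0.0317 without scan day 5, and IL4 A_11_P0000019877 to -0.0193 with the dog channel alone. IL4R A_11_P169113 turned to 0.0880 without dye normalization, 0.0319 with the dog channel alone, 0.0539 with the replicate block, 0.0383 with array weights and 0.00693 without scan day 5, and ran from -0.0830 to 0.0442 with 1 slide left out. With 1 slide left out, the difference of the bright IL4 probe from A_11_P0000019877 ran from -1.25 to -0.63, and from A_11_P053456 it ran from -0.22 to 0.15. With the dog channel alone, r of IL4R with IL2RG was 0.315 in AD and -0.346 in healthy dogs, and r of STAT6 with GATA3 was -0.0436 and 0.0940. Without the 2 dogs farthest from the median, r of IL4R with IL2RG was -0.145 in healthy dogs, r of STAT6 with GATA3 was -0.0216 in AD dogs, and r of GATA3 with CD3E was 0.754 in healthy dogs. The mean of all IL4R probes gave r = 0.117 with IL2RG in AD dogs. The cause of these changes was not tested. Dogs 1 to 8 of both groups share only a number, with r between same-numbered dogs of -0.359 to 0.425. The replicate block called 0 probes with limma, with 5177 at an unadjusted p under 0.05 and a log2 fold change of -0.61 for the bright IL4 probe. Probes near background on scan day 5 limit IL13, IL31RA and the dim IL4 probes.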
